A study of Mus musculus with 69 samples.

Results

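Naive CD4+ T cells taken without added cytokine from mice with all 4 alleles of Stat5a and Stat5b, or with only 1 of them, were compared across all genes. These cells were represented by 7 of the 69 samples of the series, chosen by their labels: 3 libraries from WT mice (Stat5a+/+ Stat5b+/+), 2 from AAB mice (Stat5a-/- Stat5b+/-), which keep 1 allele of Stat5b, and 2 from BBA mice (Stat5a+/- Stat5b-/-), which keep 1 allele of Stat5a. A further AAB library and a further BBA library carry labels that disagree on the cytokine, and they entered no comparison. The genotypes name no Cre driver, so the alleles are taken to be missing from every cell of the mouse, and effects within the T cell and effects of other cells on it cannot be told apart.

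STAT5A and STAT5B are closely related transcription factors that wait in the cytoplasm until a cytokine receptor and its JAK kinases phosphorylate them, after which they pair, enter the nucleus and bind GAS motifs in DNA. In a resting naive T cell the main such signal is IL-7, which supports survival through genes such as Bcl2, and STAT5 also switches on its own inhibitors, Cish and the Socs genes. Interferons use other members of the STAT family, which act on GAS and ISRE motifs and switch on guanylate-binding proteins, immunity-related GTPases and the machinery of antigen presentation.

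Cells were sorted as naive CD4+ CD44low cells from pooled lymph nodes and spleen of C57BL/6 mice aged 8 to 16 weeks, 20000 to 100000 cells per sample, and poly(A)+ RNA was sequenced. The labels say that the cells were kept in culture for 12 to 16 hours, while the study's methods say that cells without cytokine were processed directly ex vivo. The study counts mice as replicates but the labels tie no library to an animal, so p-values measure the spread between these samples. The libraries held 8275901 to 15969668 counts on genes, 10208 of 24309 gene symbols passed the filter on low counts, and no pair of replicates agreed within sampling noise.

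The libraries carried the labelled cell type. Cd4 lay between 953 and 1162 CPM (counts per 1000000 of the normalized total of tested genes) and Cd8a between 0.709 and 2.16 CPM. Summed over each fixed marker list, B cell genes reached 10.4 to 29.5 CPM and myeloid genes 15.5 to 25.6 CPM. NK cell genes summed to 42.2 to 69 CPM in WT, 49.2 and 47.6 CPM in AAB and 71.2 and 105 CPM in BBA. Of the 2 NK cell genes tested, 1 was called higher in BBA, and the NK cell gene Ncr1 was at 0 in 6 of the libraries. The CD8 lineage list summed to 111 to 144 CPM in 6 libraries and to 246 CPM in WT replicate 3, where Runx3, a transcription factor of CD8+ cells, stood at 210 CPM against 73.4 to 112 CPM in the others. Of the 4 members of that list that were tested, Itgae was called higher in BBA. Transcripts of the Y-linked gene Ddx3y (179 to 249 CPM) and the near absence of Xist (0.144 to 0.798 CPM) were shared by all 7. WT replicate 3 stood apart from the other WT libraries on the second axis of a multidimensional scaling plot (0.68, against -0.33 and -0.39). Without it, the named calls of AI506816, Gprc5b, Jak3, Socs3, Tigit and Tlr6 in BBA and of Gbp11 and Rhob in AAB were lost, and for the interactions those of Map6, Adam11 and Ms4a6d. In bulk samples such as these, fewer cells of a type and less RNA per cell cannot be told apart.

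The targeted genes were examined first. Stat5a and Stat5b are neighbours on chromosome 11 of GRCm38 (Stat5a at 100859351 to 100885169, plus strand; Stat5b at 100780731 to 100850724, minus strand), separated by 8626 bases. They are paralogs, and the end of Stat5a overlaps that of Stat3 on the other strand, so reads that match more than 1 gene are uncertain.

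Stat5a was at 86.5, 75.8 and 38.2 CPM in the 3 WT libraries, at 1.43 and 0.798 CPM in AAB and at 47.4 and 44.8 CPM in BBA. The AAB libraries lay far below all others, while the BBA libraries fell inside the WT range, whose lowest value was that of WT replicate 3. In AAB, Stat5a fell by 5.92 on the log2 scale (SE 0.47, adjusted p = 0.00154). This and every adjusted p here comes from the quasi-likelihood test of edgeR, with the method of Benjamini and Hochberg applied over all tested genes. Its difference between BBA and WT was -0.53 (SE 0.30, adjusted p = 0.639), and without WT replicate 3 it was -0.82 and passed the test (adjusted p = 0.0403), as it did with the replicate number as a block, a fit that compares libraries of the same number (-0.81, adjusted p = 0.00934).

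Stat5b was at 280.3, 269 and 272 CPM in WT, at 149 and 136 CPM in AAB and at 94.1 and 103 CPM in BBA. The 3 genotypes did not overlap. The log2 difference from WT was -0.94 in AAB (SE 0.09, adjusted p = 0.00533) and -1.47 in BBA (SE 0.09, adjusted p = 0.000299). In BBA, labelled Stat5b-/-, the gene thus kept 36% of its WT level, and the sources used here do not say which of its exons are deleted.

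Per kilobase of merged exons, the sum of both genes came to 58.8 ± 4.2 CPM per kb (SD, n = 3) for WT, 25.8 ± 1.76 for AAB (SD, n = 2) and 24.2 ± 0.852 for BBA (SD, n = 2). AAB thus held 44% of the WT sum and BBA 41.2%, a gap within 1 SD of AAB. The BBA sum was mostly RNA of Stat5b, the gene labelled -/- there: Stat5b gave 17.8 and Stat5a 6.46 CPM per kb. In AAB, labelled Stat5a-/-, Stat5b gave 25.7 and Stat5a 0.156 CPM per kb. These sums are thus no measure of the RNA from the alleles kept. Their composition was not alike, since Stat5b made up 99.4% ± 0.201 of the AAB sum (SD, n = 2) and 73.3% ± 2 of the BBA sum (SD, n = 2), against 84.3% ± 5.13 for WT (SD, n = 3). Within WT the share was 80.7% (95% Wilson interval 79.3% to 81.9%) and 82% (80.8% to 83.3%) in replicates 1 and 2, and 90.2% (89.3% to 90.9%) in replicate 3. These intervals cover counting error only.

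**Figure D1:**
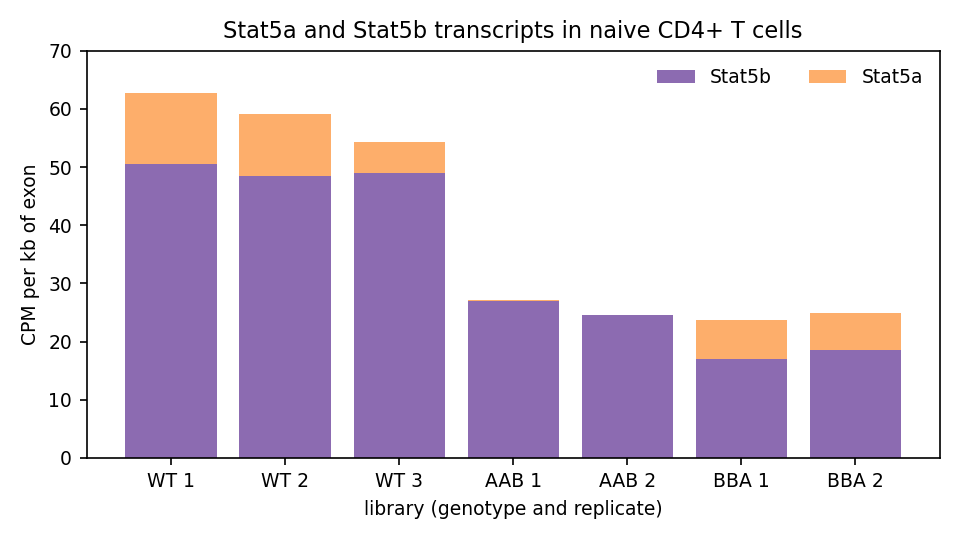
Stacked bars of Stat5b (purple) and Stat5a (orange) in each of the 7 libraries, in CPM per kb of merged exons. Stat5a is hardly visible in both AAB libraries, and the Stat5b bars stand at 52% of the WT mean in AAB and at 36% in BBA.

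Loss of both Stat5b alleles and 1 Stat5a allele was accompanied by higher RNA of interferon-induced GTPases. Some receptors that mark activated or follicular helper T cells were also higher, but their calls were lost without BBA replicate 2. Of 20 genes of the naive state tested, 2 were lower, and the median of that list was 0.034. In BBA against WT, 77 genes were called higher (0.754% of the genes tested) and 36 lower (0.353%), where a call needs more than a 1.5-fold difference and an adjusted p under 0.05. The change was at least 4-fold for 24 of the higher and 12 of the lower genes, and the median over all tested genes was -0.00364. With the replicate number as a block, 123 genes were called higher and 80 lower. The count fell to 38 without BBA replicate 2, 68 without BBA replicate 1, 70 without WT replicate 1 and 59 without WT replicate 2, and it was 114 without WT replicate 3.

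The list with the most called genes was that of interferon-γ-induced GTPases and antigen processing genes. Of 31 genes listed 28 were tested, and 13 of these rose in BBA and none fell (23 higher and none lower at an unadjusted p under 0.05, and 15 higher and none lower with DESeq2). Their median log2 difference was 0.676, and in 26 of the 28 both BBA libraries lay above all 3 WT libraries, an arrangement found in 13.9% of all tested genes. The count was 6 without BBA replicate 2 and 14 without WT replicate 3. Over all 10208 tested genes, 1001 had an unadjusted p under 0.05 in BBA, in either direction, and DESeq2 called 219. Tgtp1, Gvin1 and H2-Q7 were listed at 0 in every library and are near-identical to other genes, so their reads may be counted elsewhere or lost.

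Among the immunity-related GTPases, which attack the vacuoles of intracellular pathogens, Iigp1 was at 53.8, 32.5 and 43 CPM in WT and at 233 and 224 CPM in BBA. Both BBA libraries were far above the highest WT library, and Iigp1 rose by 2.41 (SE 0.20, adjusted p = 0.00143). Igtp was at 205, 183 and 232 CPM in WT and at 483 and 503 CPM in BBA, again without overlap (log2 difference 1.26, SE 0.11, adjusted p = 0.00182). Irgm2, Tgtp2 and Irgm1 rose by 1.16, 1.14 and 0.87. Igtp and Irgm2 overlap on the same strand, which leaves the division of their reads uncertain.

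Among the guanylate-binding proteins, which act with these GTPases on pathogen membranes and on inflammasomes, Gbp2 was at 104, 109 and 102 CPM in WT and at 266 and 218 CPM in BBA (1.20, SE 0.11, adjusted p = 0.00182). Gbp4, Gbp3, Gbp5, Gbp9 and Gbp6 rose by 1.15, 1.11, 1.06, 0.99 and 0.77, while Gbp7 (0.79, adjusted p = 0.222) and Gbp8 (0.48, adjusted p = 0.0873) missed the call although their BBA libraries also lay above WT. With the replicate block Gbp7 was called (0.70, adjusted p = 0.0253). Gbp10, a member of the family outside the list, was at 7.31, 7.81 and 6.03 CPM in WT and at 37.2 and 47.1 CPM in BBA (2.60, SE 0.16, adjusted p = 0.000299). Several of these genes are tandem copies and overlap in the annotation (Gbp4 with Gbp8 and Gbp9), so single values carry that uncertainty.

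Of the regulators in the list, Irf8, a transcription factor that joins other factors at interferon response elements, was at 7.79, 9.02 and 7.32 CPM in WT and at 21.8 and 23.2 CPM in BBA (1.49, SE 0.16, adjusted p = 0.0052). B cells also express Irf8, and the summed level of 10 B cell markers was 10.4 to 19.7 CPM in WT, 29.5 and 18.5 CPM in AAB and 28.6 and 23.1 CPM in BBA, with none of them called. Their part in the result was not tested. Nlrc5, the transactivator of MHC class I genes, rose by 0.76 (adjusted p = 0.0253). The Nlrc5 call was lost without BBA replicate 1 or 2 and without WT replicate 1 or 2. It was also lost in a joint fit with the IL-7 libraries, 15 in all (adjusted p = 0.121). Genes of antigen processing were not called: Psmb9, an immunoproteasome subunit, differed by 0.54 (adjusted p = 0.0218, under the fold limit), Tap1, a peptide transporter, by 0.56 (adjusted p = 0.0731) and B2m, the light chain of class I molecules, by 0.10 (adjusted p = 0.849). H2-K1 was the exception in sign at -0.65 (adjusted p = 0.576), with 1392 and 2467 CPM in BBA against 2367 to 3368 in WT.

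Stat2, a transcription factor that carries type I interferon signals, was at 84.6, 81.1 and 79.2 CPM in WT and at 125 and 124 CPM in BBA, and rose by 0.61 (SE 0.09, adjusted p = 0.0181). This call was lost without BBA replicate 1 or 2 (adjusted p = 0.134 and 0.138 by edgeR) and without WT replicate 1 or 2 (adjusted p = 0.0556 and 0.073). Stat3 (0.37, adjusted p = 0.158), Stat4 (0.09, adjusted p = 0.849) and Stat6 (-0.17, adjusted p = 0.693) were not called.

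Of 30 type I interferon-stimulated genes tested, Zbp1, a nucleic acid sensor, was the 1 call in BBA (0.80, adjusted p = 0.00213), at 196.5 and 203 CPM against 114 to 116 CPM in WT, and the median over the list was 0.261. At an unadjusted p under 0.05, 9 of the 30 were higher and none lower, and DESeq2 called 1 higher. In 15 of the 30 both BBA libraries lay above all WT libraries, against 13.9% of all tested genes. Irf7 (0.46, adjusted p = 0.145) and Isg15 (0.59, adjusted p = 0.0669) were not called, and Ifit1, at 29.95 and 13.3 CPM in BBA and 24.8 to 27.6 CPM in WT, differed by -0.31 (adjusted p = 0.823). Transcripts of the cytokine Ifng were between 0 and 0.869 CPM in all 7 libraries, below the filter.

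**Figure D2:**
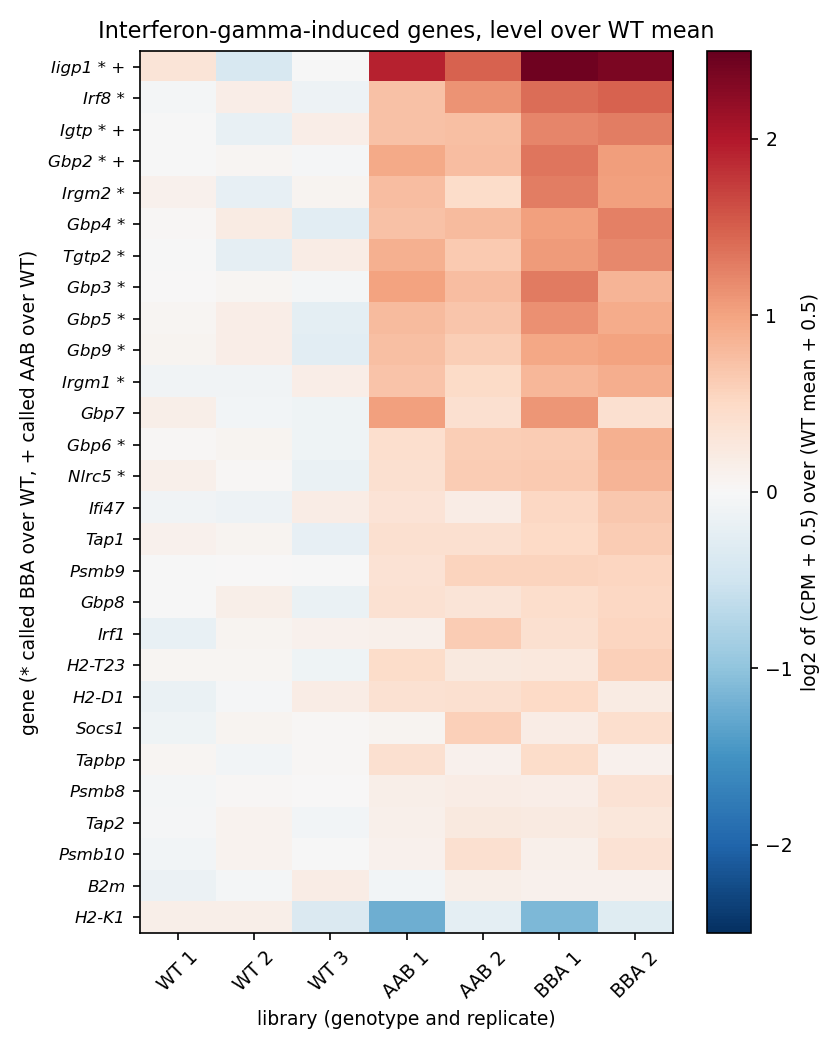
Heat map of the 28 tested interferon-γ-induced genes in each of the 7 libraries, as the log2 ratio of CPM to the WT mean, with 0.5 added to both (red higher, blue lower). Stars mark the 13 genes called in BBA and plus signs the 3 called in AAB, and H2-K1 at the foot is the gene with blue AAB and BBA columns.

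Promoter letters of 3 GTPases and of 2 STAT5 targets are shown because the first group moved in these cells and the second is where STAT5 itself is known to act. The windows come from RefSeq promoters on GRCm38.p6 and are written 5′ to 3′ on the strand of the gene, with every full match to the GAS motif (TTCNNNGAA, which reads the same on both strands) or to the ISRE motif (GAAANNGAAA, searched on both strands) in capitals.
Igtp, GAS, chr11:58199501-58199530, plus strand: aactagccatTTCTAGGAActgaaactgaa
Igtp, ISRE, chr11:58199512-58199541, plus strand: tctaggaactGAAACTGAAAgctgttcggg
Irgm2, GAS, chr11:58214892-58214921, plus strand: aactagccatTTCCAGGAActgaaactgaa
Irgm2, ISRE, chr11:58214903-58214932, plus strand: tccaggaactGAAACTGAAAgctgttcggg
Tgtp2, GAS, chr11:49064274-49064303, minus strand: agctagccatTTCCAGGAAtcgaaaccgaa
Tgtp2, ISRE, chr11:49064263-49064292, minus strand: tccaggaatcGAAACCGAAAcctactctga
Cish, GAS, chr9:107296649-107296678, plus strand: ccgcccagttTTCCTGGAAagTTCTTGGAA
Socs3, GAS, chr11:117969501-117969530, minus strand: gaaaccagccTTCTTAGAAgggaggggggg
In the 3 GTPases the GAS and ISRE matches sit side by side, the GAS match beginning 45, 75 and 81 bases before the start of Igtp, Irgm2 and Tgtp2, and the Cish window holds 2 GAS matches. Other GTPase genes called in BBA differed: Irgm1, Gbp2 and Gbp3 held ISRE matches and no GAS match, and Gbp5 held both. A GAS match was present in 9.55% of all 27025 promoters, in 8.41% of the 8146 tested genes with a promoter, in 24.1% of the 54 such genes called higher in BBA and in 38.1% of the 21 in the interferon-γ list. For ISRE the shares were 3.99%, 3.89%, 24.1% and 52.4%. Of the 29 genes with a promoter called lower in BBA, 10.3% held a GAS match and 13.8% an ISRE match. A match describes letters and is no evidence of binding.

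Of 17 STAT5 target genes tested, 1 was called in BBA and none in AAB, and the list medians were -0.0499 and 0.00966. The called gene was Socs3, an inhibitor of cytokine receptors that STAT3 also induces, at 187 and 190 CPM in BBA and at 101, 114 and 99.2 CPM in WT (0.84, SE 0.15, adjusted p = 0.0384), and its call was lost without either BBA library or without any 1 of the WT libraries. In AAB, 2 members reached an unadjusted p under 0.05 and DESeq2 called none, beside 819 and 123 of all 10208 tested genes.

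Cish, a feedback inhibitor that is among the most direct STAT5 targets, was at 31.3, 23.3 and 24.6 CPM in WT, at 21.8 and 32.7 CPM in AAB and at 16.8 and 18.3 CPM in BBA. The BBA libraries were the lowest, but the difference of -0.58 (SE 0.20, adjusted p = 0.332) missed the test. Bcl2, the survival factor downstream of IL-7, was at 257, 256 and 189 CPM in WT and at 171 and 191 CPM in BBA (-0.37, adjusted p = 0.496), overlapping with WT replicate 3. Socs2 was below the filter, at 0.479 CPM or less in all 7 libraries.

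The genes upstream of STAT5 gave 1 call among 11 tested. Jak3, the kinase bound to the common γ chain, was at 216, 208 and 175 CPM in WT and at 300.5 and 420.5 CPM in BBA (0.86, SE 0.15, adjusted p = 0.0384), and lost its call without BBA replicate 2 or without any 1 WT library. Il7r (0.26, adjusted p = 0.783), which encodes the IL-7 receptor α chain, and Il2rg (-0.02, adjusted p = 0.966), the common γ chain, were not called.

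Of 20 genes of naive or quiescent T cells none rose and 2 fell, with a list median of 0.034, and Ccr7 (0.14), Tcf7 (0.11) and Klf2 (-0.10) had adjusted p from 0.788 to 0.817. Igfbp4, a secreted binding protein of insulin-like growth factors that marks naive cells, was at 957, 809 and 691 CPM in WT and at 283.5 and 275 CPM in BBA. The groups were well apart, and the difference of -1.55 (SE 0.15, adjusted p = 0.0023) held in each alternative and without any single library. Dapl1, whose transcript is high in naive T cells, was at 91.2, 96.2 and 62.1 CPM in WT and at 11.7 and 19.9 CPM in BBA (-2.37, SE 0.30, adjusted p = 0.00878).

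Some genes of activated, follicular and regulatory T cells rose from low levels. Of the follicular helper list 3 of 10 tested did so: Cxcr5, the homing receptor for B cell follicles, from 4.43, 5.61 and 3.16 CPM in WT to 13.7 and 16.9 CPM in BBA (1.82, adjusted p = 0.0123), the inhibitory receptor Pdcd1 from 4.79, 4.95 and 3.95 CPM to 13.1 and 19.7 CPM (1.86, adjusted p = 0.00658), and the regulator Tox2 by 3.68 (adjusted p = 0.0268). Bcl6, which directs the follicular fate, was at 33.6 and 34.6 CPM against 22.3 to 31.5 CPM and was not called (0.38, adjusted p = 0.427).

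Of 16 inhibitory receptor and anergy genes tested, 3 rose: Pdcd1, Lag3 (from 0.839, 1.1 and 0.861 CPM in WT to 5.41 and 12.1 CPM in BBA, 3.24, adjusted p = 0.0115) and Tigit (from 1.56, 0.99 and 0.646 CPM to 4 and 6.33 CPM, 2.35, adjusted p = 0.0356). The medians of the follicular and inhibitory lists were 0.495 and 0.521. Without BBA replicate 2 neither list had a called gene, and without WT replicate 3 each had 2. The Tigit call was lost without either BBA library, without WT replicate 2 or 3 and with the replicate block (adjusted p = 0.0622). With that block 4 of the 16 inhibitory genes were called higher and none lower.

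Of 17 memory and effector genes tested, 2 rose. Eomes, a T-box factor of effector and memory cells, was at 6.11, 4.62 and 5.67 CPM in WT, at 3.3 and 6.12 CPM in AAB and at 21.6 and 56.9 CPM in BBA (2.86, SE 0.39, adjusted p = 0.0123), a call that was lost without BBA replicate 2 or without WT replicate 2. NK cells express Eomes too, and of the 7 NK markers, summing to 42.2 to 69 CPM in WT and to 71.2 and 105 CPM in BBA, Eomes and the perforin gene Prf1 made up nearly all, with Ncr1 and Klre1 at 0 in both BBA libraries. Maf, a factor of follicular, IL-10-producing and IL-4-producing cells, was at 5.87, 6.82 and 6.46 CPM in WT and at 22.5 and 22.3 CPM in BBA (1.81, SE 0.16, adjusted p = 0.00182). Cd44, which the sort selected against, was at 17.5, 26.4 and 45.8 CPM in WT and at 47.8 and 18.6 CPM in BBA, without separation, and Ccl5, a chemokine of memory cells, was at 0.359 to 0.718 CPM in WT and at 1.84 and 20.4 CPM in BBA.

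In the regulatory T cell list 2 of 14 tested genes rose. Ikzf2, which encodes Helios, was at 7.43, 9.46 and 6.6 CPM in WT and at 25.7 and 28.3 CPM in BBA (1.80, SE 0.16, adjusted p = 0.0021), and Itgae, an integrin of intraepithelial and regulatory cells that overlaps Haspin, reached 2.49 and 3.73 CPM against 0.646 to 0.719 CPM (2.21, adjusted p = 0.0447). The Itgae call was lost with the replicate block (adjusted p = 0.0646), with the newer form of edgeR's test (0.0621), in the fit over 15 libraries (0.0752) and in each of the 3 fits with a library left out in which the gene passed the filter (0.064 to 0.0868). With the replicate block 2 of the 14 genes were called higher and 1 lower. Foxp3, the factor that defines regulatory T cells, was at 27.6 and 32.2 CPM in BBA and at 27.2, 25.9 and 19.7 CPM in WT (0.31, adjusted p = 0.565). The summed level of the whole regulatory list was 211 to 299 CPM in WT and 325 and 361 CPM in BBA, that of the memory and effector list 382 to 426 CPM in WT and 371 and 472 CPM in BBA, and that of the follicular list 259 to 285 CPM in WT and 342 and 410.5 CPM in BBA. The part of other T cell subsets in these differences was not tested.

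Il12rb1, which encodes a chain shared by the IL-12 and IL-23 receptors, rose by 2.05 (adjusted p = 0.0249). Its call was lost without BBA replicate 1 or 2, without WT replicate 2 and in the fit over 15 libraries (adjusted p = 0.099). Marker lists aside, 10 lists had no call in BBA, namely immediate early genes, T cell receptor signalling, the BCL-2 family, the TNF superfamily, proliferation, glycolysis, cholesterol and fatty acid synthesis, amino acid transporters, ribosome biogenesis and NK receptors. Of their 161 tested members, 17 reached an unadjusted p under 0.05 and DESeq2 called 4, beside 1001 and 219 of all 10208 tested genes. With the replicate block 1 immediate early gene was called higher and 1 lower. The NK receptor list had 1 tested member, Klrd1, with a difference of -1.61 (adjusted p = 0.126) that DESeq2 called, as did the replicate block (-1.86, adjusted p = 0.0227).

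**Figure D3:**
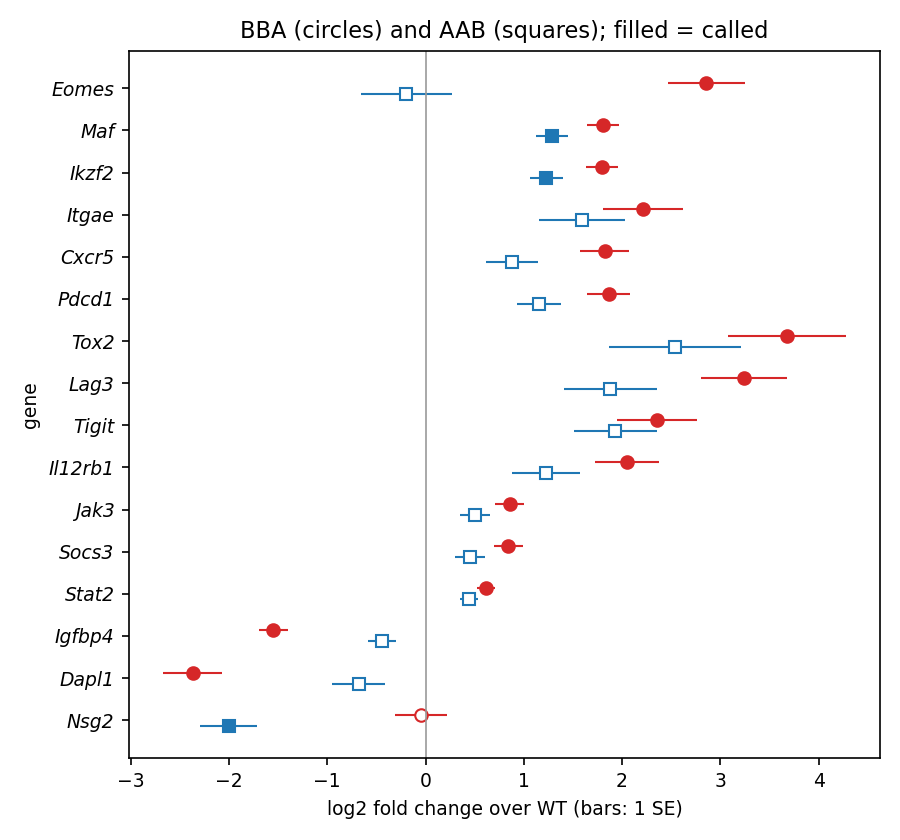
Log2 fold change over WT of 16 genes, with bars of 1 SE, for BBA (red circles) and AAB (blue squares), filled where the gene was called. Eomes stands at 2.86 in BBA and -0.20 in AAB, Nsg2 at -0.05 in BBA and -2.003 in AAB, and only Maf and Ikzf2 are filled for both.

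Among genes named by the size of their change in BBA, the upper end held Kcnf1, a modulatory potassium channel subunit, at 1.08, 1.1 and 0.646 CPM in WT and at 12.9 and 38.3 CPM in BBA (4.82, SE 0.53, adjusted p = 0.00496). Inppl1, the inositol phosphatase SHIP2, was at 4.43, 4.07 and 4.59 CPM in WT and at 35 and 42.4 CPM in BBA (3.14, SE 0.14, adjusted p = 3.18e-05), the tightest of the large increases, although it overlaps Phox2a on the other strand. Fbxo27 and Fbxo17, neighbouring F-box genes on chromosome 7, rose by 3.27 and 2.42. Others were AI506816 (3.18), Tdgf1 (2.47), Arrdc4 (2.34), Rnf157 (2.25) and the Toll-like receptor gene Tlr6 (2.24). AI506816 lost its call without any 1 BBA or WT library, and Tlr6 without BBA replicate 1 or any 1 WT library.

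Some of the lower genes were close to absent in BBA rather than graded. Slc15a2, a transporter of peptides and bacterial muropeptides, gave 0 and 1 counts in the BBA libraries, at 0 and 0.0621 CPM, against 27.8, 32 and 132 CPM in WT. That is 0.0525% of the WT level, with an exact 95% interval of 0.00133% to 0.293% for counting error, and the AAB libraries were at 115 and 64.4 CPM. The Slc15a2 call was lost without BBA replicate 1 or 2 and in the fit over 15 libraries (adjusted p = 0.0915). Trim12a, a member of an antiviral TRIM cluster on chromosome 7, was at 63.4, 66.3 and 57.7 CPM in WT and at 1.84 and 1.06 CPM in BBA (-5.50, SE 0.20, adjusted p = 1.4e-05). In the fit over 15 libraries Trim12a lost this call (adjusted p = 0.064). The neighbouring gene Trim30d was at 18.7, 15.4 and 12.1 CPM in WT and at 1.3 and 1.18 CPM in BBA (-3.63, SE 0.29, adjusted p = 0.00143).

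The remaining lower genes included Arsb, a lysosomal sulfatase (-3.95), Pttg1, securin, which restrains separase in the cell cycle (-3.45), Sorcs2, a sorting receptor (-2.59), Akr1c13 (-2.58), Arhgap31 (-2.06), Gprc5b (-1.96) and Epas1, the hypoxia-inducible factor HIF-2α (-1.58). The Gprc5b call was lost without any 1 BBA or WT library and with the replicate block (adjusted p = 0.0504). Sorcs2 was at 21, 21.9 and 21.4 CPM in WT and at 2.92 and 4.04 CPM in BBA, and its call held without any single library. Arsb was uneven in WT, at 59.6, 42.8 and 23.4 CPM, and in AAB, at 2.64 and 17.7 CPM, with both BBA libraries at 2.7 and 2.67 CPM. The Arsb call in BBA was lost in the fit over 15 libraries (adjusted p = 0.118). In the 7 fits that left out 1 library, the calls of Arsb, Akr1c13 and Arhgap31 were lost in 4, 4 and 5.

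The second comparison set AAB, which lacks both Stat5a alleles and 1 Stat5b allele, against WT. In AAB some interferon-induced GTPases, Maf and Ikzf2 were higher, as were Slfn9, Smc6, Xaf1 and the pseudogene Gm6548, while the naive gene Nsg2 was lower. In AAB 26 genes were called higher (0.255%) and 10 lower (0.098%), with a median over all genes of 0.000181. With the replicate block, 80 were called higher and 36 lower. The count was 13 without AAB replicate 1, 15 without WT replicate 1, 22 without WT replicate 2 and 51 without WT replicate 3. AAB and BBA were set against the same WT libraries, so resemblance between their values has a shared source.

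Of the 28 interferon-γ-induced genes 3 rose in AAB and none fell (20 higher and none lower at an unadjusted p under 0.05, and 12 higher and none lower with DESeq2), with a median of 0.493, and with the replicate block 11 rose. In 26 of the 28 both AAB libraries lay above all WT libraries, against 12.5% of all tested genes. Without AAB replicate 1 none of the 28 was called, and without WT replicate 3 there were 5. Iigp1 was at 165 and 120.4 CPM in AAB, above every WT library (1.73, SE 0.20, adjusted p = 0.0105), Gbp2 at 203 and 180 CPM (0.87, SE 0.11, adjusted p = 0.0172) and Igtp at 344 and 347 CPM (0.74, SE 0.11, adjusted p = 0.0361). Gbp10 was at 33.8 and 38.5 CPM (2.37, SE 0.16, adjusted p = 0.000418). In the 7 fits that left out 1 library, the calls of Igtp, Gbp2 and Iigp1 were lost in 6, 3 and 1.

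Stat2 was at 119 and 102 CPM in AAB, above the WT libraries, but its difference of 0.44 missed the test (adjusted p = 0.134). Of 30 type I interferon-stimulated genes 2 rose, with a list median of 0.365. At an unadjusted p under 0.05, 17 were higher and none lower, and DESeq2 called 2 higher. In 16 of the 30 both AAB libraries lay above all WT libraries, against 12.5% of all tested genes. Zbp1 was at 186 and 185 CPM (0.69, SE 0.08, adjusted p = 0.00792). Xaf1, a pro-apoptotic antagonist of XIAP, was at 27.3, 28.7 and 26.8 CPM in WT, at 147 and 80.1 CPM in AAB and at 37.1 and 34.7 CPM in BBA, with a rise of 2.04 in AAB (SE 0.22, adjusted p = 0.00792). The difference of 1.66 between AAB and BBA missed the test (adjusted p = 0.0598) but passed it with the replicate block (1.61, adjusted p = 0.0233).

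Maf rose by 1.29 (17.8 and 13.6 CPM, adjusted p = 0.0194) and Ikzf2 by 1.23 (17.5 and 19 CPM, adjusted p = 0.0252) in AAB. Both calls were lost in the fit over 15 libraries (adjusted p = 0.379 and 0.369). The calls of Maf and Ikzf2 in BBA were lost there too (adjusted p = 0.0829 and 0.0702). Pdcd1 (1.15, adjusted p = 0.104), Cxcr5 (0.88, adjusted p = 0.38), Lag3 (1.88, adjusted p = 0.256) and Tigit (1.93, adjusted p = 0.16) were not called there, although each was higher in both AAB libraries than in any WT library. No gene of the follicular or inhibitory lists was called in AAB, 4 and 6 members having an unadjusted p under 0.05 and a higher level, and DESeq2 called 1 and 3. Of the naive genes 1 fell: Nsg2, a vesicle-associated protein, at 196, 199 and 357 CPM in WT, 73.5 and 52.1 CPM in AAB and 225 and 260.5 CPM in BBA (-2.003, SE 0.29, adjusted p = 0.0335). With the replicate block 2 naive genes were called lower in AAB.

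Other genes that rose in AAB had step-like levels. Gm6548, a processed pseudogene on chromosome 17 whose reads may belong to its parent, was at 11.6, 12.8 and 11.8 CPM in WT, at 122 and 121 CPM in AAB and at 3.14 and 3.35 CPM in BBA. AAB lay above and BBA below WT, with differences of 3.33 (SE 0.10, adjusted p = 2.15e-06) and -1.88 (SE 0.13, adjusted p = 0.000422). Gm6548 lost both calls in the fit over 15 libraries (adjusted p = 0.0586 for AAB and 0.382 for BBA). Smc6, a subunit of the SMC5/6 complex that handles recombination intermediates, was at 252, 269 and 315 CPM in WT, at 858 and 872 CPM in AAB and at 198 and 199 CPM in BBA (1.63 in AAB, SE 0.11, adjusted p = 0.000418).

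Slfn9, a Schlafen family gene, was at 8.39, 6.93 and 6.32 CPM in WT and at 62.1 and 47 CPM in AAB (2.93, SE 0.17, adjusted p = 0.000175). Rhob, a small GTPase, rose by 2.41 (adjusted p = 0.0384), and Inppl1, Fbxo17, AA465934, Gbp11 and Ppm1l by 2.73, 2.83, 1.64, 1.55 and 1.51. Rhob lost its call without AAB replicate 2 or any 1 WT library, and Gbp11 without any 1 AAB or BBA library or without WT replicate 1 or 3. Among the genes lower in AAB, besides Stat5a and Stat5b, were C130046K22Rik, Pttg1 (-3.39), Ppp1r3e (-2.46), Cmtm7 (-1.32) and Sall2 (-1.23). AA465934, Ppp1r3e and Sall2 each lost their call in 6 of the 7 fits that left out 1 library. C130046K22Rik overlaps Gosr2 on the other strand and gave 2 and 0 counts in AAB, 1.27% of the WT level (exact 95% interval 0.153% to 4.63%).

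AAB was then compared directly with BBA, which share the number of lost alleles and differ in the paralog kept. Between them 7 genes were called higher in AAB (0.0686%) and 1 lower (0.0098%), and the median over all genes was 0.00415. With the replicate block, 25 were called higher and 20 lower. The 1 lower gene was Stat5a itself, with -5.39 (SE 0.49, adjusted p = 0.00418), while Stat5b differed by 0.53 (SE 0.10, adjusted p = 0.132). The higher genes were Trim12a (5.61, SE 0.21, adjusted p = 7.58e-06), Gm6548 (5.22, SE 0.13, adjusted p = 5.45e-07), Trim30d (3.90), Slfn9 (2.66), Smc6 (2.12), Syne2 (1.11) and Tnip1 (0.93). In the fit over 15 libraries the calls of Trim12a and Trim30d were lost (adjusted p = 0.174 and 0.0806). Those of Syne2 and Tnip1 were lost without BBA replicate 1 and without BBA replicate 2.

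Syne2, which anchors the nucleus to the cytoskeleton, was at 129 and 137 CPM in AAB and at 61.4 and 62 CPM in BBA, with WT between them at 86.4, 97.9 and 84.9 CPM. Tnip1, an inhibitor of NF-κB that binds A20, was at 269 and 254 CPM in AAB and at 138 CPM in both BBA libraries. No interferon-γ list gene was called between the genotypes: the median was -0.182, 8 were lower in AAB at an unadjusted p under 0.05 and none higher, and DESeq2 called none. Over all 10208 tested genes, 448 had an unadjusted p under 0.05 there, in either direction, and DESeq2 called 66. The differences with the largest size that missed the test included Slc15a2, at 1769 counts in AAB against 1 in BBA (adjusted p = 0.0552), and Eomes (-3.05, adjusted p = 0.0673). Both passed it with the replicate block (Slc15a2 adjusted p = 0.000152, Eomes -3.01, adjusted p = 0.0171). With 2 libraries a side, a miss does not show that the genotypes act alike. The count was 19 without WT replicate 3, 14 without AAB replicate 1 and 13 without AAB replicate 2.

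Of the 113 genes called in BBA, 43 (38.1%) had another called gene within 1 Mb, beside 14.4% of the 10021 tested genes with a position that were not called. In AAB the shares were 22.2% of 36 and 4.97% of 10098. In BBA, chromosomes 7 and 11 held 20 calls among 782 tested genes (2.56%) and 16 among 858 (1.86%), where 1.11% of all tested genes were called. In AAB, chromosome 11, which carries the deleted genes, held 12 of the 36 calls (1.4% of its tested genes, against 0.353% of all), Stat5a and Stat5b among them. Several such runs were tandem families: Gbp9, Gbp4, Gbp10, Gbp6 and Gbp11 on chromosome 5 (105077630 to 105346472), Gbp5, Gbp3 and Gbp2 on chromosome 3 (142493978 to 142638008), and Gm12250, Igtp and Irgm2 on chromosome 11 (58187739 to 58222782). Others joined unrelated genes, among them Art2a-ps, Inppl1, Pgap2 and Trim68 on chromosome 7 (101552453 to 102687327), named here for their position and not by size. Within 5 Mb of the deleted genes 131 genes were tested, of which Igfbp4 and Ikzf3 were called in BBA and C130046K22Rik in AAB.

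A further comparison asked whether the effect of genotype without cytokine differed from that in naive CD4+ T cells cultured with IL-7. By the labels both sets were cultured, while by the study's methods the cells without cytokine were not. If the methods hold, culture and IL-7 cannot be told apart here. The 15 libraries of both conditions were fitted together, and the interaction is the effect without cytokine minus the effect with IL-7. For BBA 116 genes differed between the conditions (1.11% of 10497 tested), 94 of them upward, and for AAB 2 (0.0191%). With the replicate block these counts were 216 and 11. Of 19 STAT5 targets tested 6 were called, all upward, and the list median was -0.0459 without cytokine and -0.631 with IL-7 in BBA.

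Cish was at 101, 127 and 108 CPM in the WT libraries with IL-7 and at 19.1, 25.4 and 12.3 CPM in BBA with IL-7, beside 17.0 and 18.6 CPM in BBA without cytokine (interaction 1.98, SE 0.38, adjusted p = 0.0201). Lta, encoding lymphotoxin α, behaved likewise, at 85, 112 and 92.5 CPM in WT with IL-7 and at 16.9, 12 and 14.7 CPM in BBA (2.69, SE 0.43, adjusted p = 0.00561). Myc, Socs1 and Osm gave interactions of 1.52, 1.33 and 1.29. Socs3, at 0.95, differed in that its BBA effect was 0.84 without cytokine and -0.11 with IL-7. The costimulatory receptors Tnfrsf4 and Tnfrsf18 of the regulatory list gave 1.99 and 1.43.

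Ecm1, a secreted matrix protein, was at 47.1, 45.9 and 45.4 CPM in WT and at 51 and 53.7 CPM in BBA without cytokine, and with IL-7 at 1656, 2341 and 2029 CPM in WT, 671 and 1114 CPM in AAB and 61.1, 99.7 and 85 CPM in BBA (interaction 4.80, SE 0.30, adjusted p = 2.84e-06). The same interaction in AAB was 1.65 (SE 0.31) and missed the test (adjusted p = 0.124). D630039A03Rik (6.06), Map6 (5.77), Rgs1 (4.11) and 3110082I17Rik (3.21) followed the same course. The Map6 call was lost without WT replicate 3 (adjusted p = 0.0716) and in 8 other fits that left out 1 of the 15 libraries.

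Some interferon-induced genes went the other way. Irgm1 was at 47, 48.2 and 46.6 CPM in WT with IL-7 and at 339, 411 and 252 CPM in BBA, which made the genotype effect larger with IL-7 (2.82) than without (0.87), with an interaction of -1.95 (SE 0.30, adjusted p = 0.00424). Gbp10 gave -4.11, Rtp4 -2.36 and Irf9 -0.83. Over the interferon-γ list the median difference was 0.675 without cytokine and 1.05 with IL-7, and Irgm1 and Socs1 were called for the difference between them, in opposite directions. At an unadjusted p under 0.05, 10 of the 28 were lower and 1 higher, and DESeq2 and the replicate block each called 6 lower and 1 higher. Over all 10497 tested genes, 1115 had an unadjusted p under 0.05 for this interaction, in either direction. Over the type I list the medians were 0.263 and 1.11, and 2 of the 30, Irf9 and Rtp4, were called lower (15 lower and none higher at an unadjusted p under 0.05, 9 lower with DESeq2 and 8 with the block). Klrd1, an NK receptor chain, gave -3.24 and St3gal6, a sialyltransferase, -1.56.

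For AAB the 2 called genes were Vim, the intermediate filament vimentin (1.08, SE 0.12, adjusted p = 0.00393), and Ahcyl2 (0.99, SE 0.11, adjusted p = 0.00393). Vim was at 364 and 361 CPM in AAB without cytokine, inside the WT range of 333 to 398, and at 151 and 165 CPM with IL-7, below the 3 WT libraries at 331 to 345 CPM. The count for AAB was 0 without AAB replicate 2 of the IL-7 cultures, when 1 library was left in that group.

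**Figure D4:**
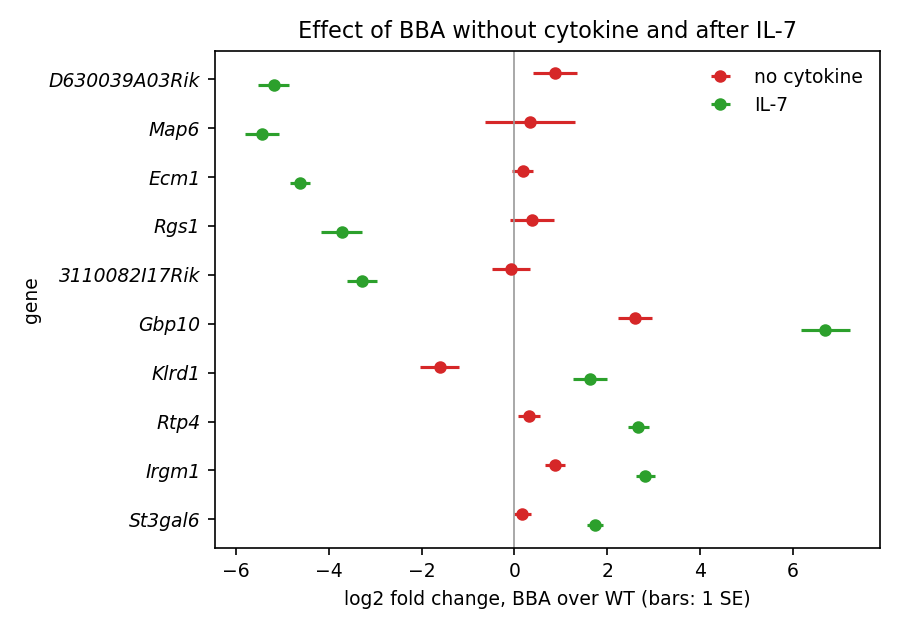
Log2 fold change of BBA over WT without cytokine (red) and with IL-7 (green), with bars of 1 SE, for the 10 genes named for this interaction. The upper 5 genes lie near 0 without cytokine and far below 0 with IL-7, down to -5.44 in Map6, and the lower 5 lie above 0 with IL-7, up to 6.70 in Gbp10.

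The last comparison set naive CD4+ against naive CD8+ T cells without cytokine, 13 libraries in all. It is confounded: the CD8+ libraries held Xist at 797 to 1022 CPM and Ddx3y at 0 to 0.0726 CPM, so that lineage, sex of the donors and counting table cannot be told apart. For BBA 64 genes were called (0.613% of 10432 tested), 32 in each direction, and for AAB 4 (0.0383%), and with the replicate block the counts were 175 and 50. The BBA count was 9 and 36 without BBA replicate 2 or 1 of the CD4+ cells, 30 without BBA replicate 2 of the CD8+ cells, and 17 and 19 without WT replicate 1 or 2 of the CD8+ cells. The AAB count rose to 15 without AAB replicate 2 of the CD4+ cells. None of the 28 interferon-γ-induced genes was called for BBA (11 higher and 1 lower at an unadjusted p under 0.05, 4 called by DESeq2 and 2 with the block), their median effects being 0.676 in CD4+ and 0.301 in CD8+ cells. Over all 10432 tested genes, 1180 had an unadjusted p under 0.05 for this interaction, in either direction.

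Igfbp4 had a BBA effect of -1.55 in CD4+ and -3.64 in CD8+ cells, where it was at 808 and 732 CPM in WT and at 57.7 and 65.8 CPM in BBA (interaction 2.09, SE 0.20, adjusted p = 0.00138). Maf gave an interaction of 1.97 (adjusted p = 0.0211), with 2.82 to 5.09 CPM in the 6 CD8+ libraries. Itgae (3.51), Nkg7 (3.35), a granule protein, and Myo1f (3.28), a myosin, differed between the lineages while lying far higher in CD8+ cells, with Itgae at 92.9 to 294 CPM there. Ms4a6d gave 2.98, a call that was lost in 11 of the 13 fits that left out 1 library. The Nkg7 call was lost in 5 of those fits, and the Itgae call in 1, without BBA replicate 2 of the CD4+ cells. Without that library Nkg7 gave 2.16.

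The genes that stood near 0 in CD4+ BBA cells did not do so in CD8+ BBA cells. Slc15a2 was at 90.6 and 177 CPM in CD8+ BBA libraries (interaction -11.47, SE 1.67, adjusted p = 0.0114), Trim12a at 140 and 86.1 CPM (-6.98, SE 0.42, adjusted p = 2.26e-05) and Trim30d at 38 and 19.5 CPM (-5.10, SE 0.53, adjusted p = 0.00179). Arsb gave -4.76 and Adam11, near 0 in CD4+ libraries and in CD8+ WT cells, gave -6.67, with 40.4 and 61.4 CPM in CD8+ BBA and 27.1 and 31.8 CPM in CD8+ AAB cells. The Adam11 call was lost without BBA replicate 2 or WT replicate 3 of the CD4+ cells and with the replicate block (adjusted p = 0.0541). The Arsb call was lost in 10 of the 13 fits that left out 1 library. Slc15a2 lost its call in 3 of them, without BBA replicate 1 or 2 of the CD4+ cells or WT replicate 1 of the CD8+ cells. Inppl1 was at 2.11 and 10.1 CPM in CD8+ BBA and at 25.7 and 23 CPM in CD8+ WT cells (interaction 5.04, SE 0.58, adjusted p = 0.003).

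In AAB the called genes were Gm6548 (4.27), Smc6 (1.94), Eml2 (1.57) and Cmtm7 (-2.70). Smc6 was at 639 and 658 CPM in CD8+ WT cells and at 460.3 and 588 CPM in CD8+ AAB cells. Levels of such genes also differed between libraries of 1 genotype and condition: with IL-7, Trim12a was at 145, 3.75 and 125 CPM in the 3 BBA libraries, Gm6548 at 106 and 10.95 CPM in the 2 AAB libraries, and Slc15a2 at 97.4 and 0.0952 CPM in the same 2. Their levels thus did not follow the genotype label alone, and the animal of each library is not given by the labels.

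**Figure D5:**
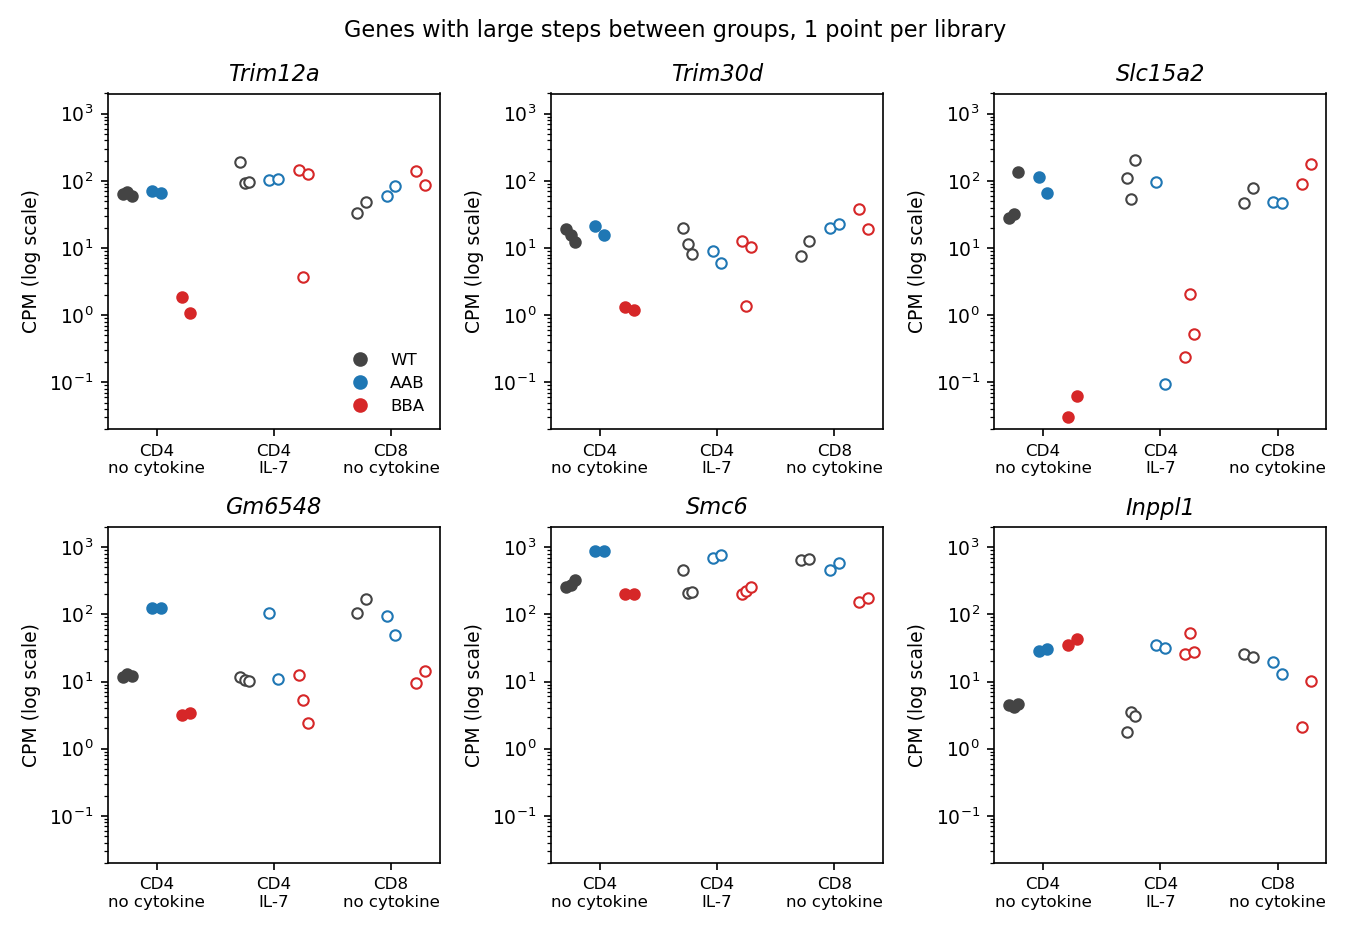
Level in CPM, on a log axis, of genes with step-like differences in every library of naive CD4+ cells without cytokine (filled), with IL-7, and of naive CD8+ cells without cytokine (open), by genotype. Values under 0.03 CPM are drawn at 0.03. Trim12a is at 1.84 and 1.06 CPM in the CD4+ BBA libraries without cytokine and at 86.1 and 140 CPM in the CD8+ BBA libraries.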

How the data were processed

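Gene counts of naive CD4+ T cell libraries were used as deposited by the authors: whole-number counts per gene symbol, not normalized. The submitters' processing notes name TopHat 2, HTSeq, Cufflinks and mm9, while the study's methods name mm10, and the annotation and strand setting of the counting are not given in the sources used here. Libraries came from single-end sequencing of poly(A)+ RNA.

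Genes were filtered by the Jaccard rule of HTSFilter at 38.4 normalized counts, which left 10208 of 24309 symbols. Counts were scaled by TMM and tested with the legacy form of edgeR's quasi-likelihood test (edgeR 4.0.16, limma 3.58.1, R 4.3.3), with Benjamini-Hochberg adjustment over all tested genes. A call needed more than a 1.5-fold difference and an adjusted p under 0.05. The SE is the absolute log2 fold change divided by the square root of F. The 7 libraries, which held 8275901 to 15969668 counts, shared 1 fit. Interactions used joint fits of 15 libraries (IL-7) and 13 libraries (CD8+), with thresholds of 48.71 and 51.08 normalized counts, so their CPM differ slightly from those of the 7-library fit. Steps were tested on simulated data. Positions come from GENCODE vM21 (GRCm38), and promoters from RefSeq (GRCm38.p6). Figures were drawn with matplotlib 3.10.9.

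Named genes are Stat5a and Stat5b, up to 12 genes per direction and genotype contrast with the largest change among called genes that averaged 50 normalized counts or more and whose groups did not overlap, every called list member, the STAT5 targets whatever their result, and up to 5 genes per direction and interaction. Some genes that met this rule are not reported here. The comparisons and lists were chosen with earlier results of these data known. Genes named beside these, among them the uncalled list members and Ikzf3, Pgap2, Trim68, Art2a-ps and Gm12250, were chosen after their values were seen. Alternatives were DESeq2 1.42.0, other filters, scaling, quasi-likelihood form, adjustment and fold limit, the replicate number as a block, a fit over 15 libraries, and each library left out in turn. The labels give the replicate numbers no meaning. Libraries of the same number deviated together (r from 0.153 to 0.292 across genes in 6 pairs, against -0.292 to 0.0504 in 10 pairs of other numbers, where in groups of 2 the deviations mirror each other). Values with the number as a block therefore stand beside the named calls that it removed and beside some of those that it added. The 2 libraries whose labels disagree on the cytokine entered no test. Intervals are 95% intervals for counting error only.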

Additional observations from a re-analysis of the deposited data

Results flagged for a closer look

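Differences of the genotype effect between conditions were tested as interactions, taken as the effect in naive CD4+ cells without cytokine minus the effect in the other condition. Against IL-7, 116 genes passed for BBA and 2 for AAB. If cells without cytokine were processed directly ex vivo, as the study's methods say, culture and IL-7 cannot be told apart there. Against naive CD8+ cells, 64 passed for BBA and 4 for AAB, and in that comparison lineage and sex of the donors cannot be told apart.

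For BBA against IL-7 the genes named for their size were D630039A03Rik (6.06), Map6 (5.77), Ecm1 (4.80), Rgs1 (4.11) and 3110082I17Rik (3.21) upward, and Gbp10 (-4.11), Klrd1 (-3.24), Rtp4 (-2.36), Irgm1 (-1.95) and St3gal6 (-1.56) downward. For AAB they were Vim (1.08) and Ahcyl2 (0.99).

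For BBA against CD8+ cells they were Inppl1 (5.04), Itgae (3.51), Nkg7 (3.35), Myo1f (3.28) and Ms4a6d (2.98) upward, and Slc15a2 (-11.47), Trim12a (-6.98), Adam11 (-6.67), Trim30d (-5.10) and Arsb (-4.76) downward. For AAB they were Gm6548 (4.27), Smc6 (1.94), Eml2 (1.57) and Cmtm7 (-2.70).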

How the results depend on the processing

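No called named gene reversed its direction in any alternative. Of 33 differences of named genes that were not called, all STAT5 targets, 14 changed sign in at least 1 setting, 8 of them with the replicate block, and none of the 14 was over 0.173 in size. Nsg2 in BBA, not called at -0.05, was 0.30 with the block. Of the named genes called, 9 of 54 in BBA, 4 of 26 in AAB and 4 of 7 between AAB and BBA kept their call in every alternative, and 21, 8 and 5 kept it whichever library was left out. The counts depended on the setting. DESeq2 called 219, 123 and 66 genes in BBA over WT, AAB over WT and AAB over BBA, and 228, 18, 201 and 56 for the interactions of BBA and AAB with IL-7 and with lineage. Without a filter on low counts the numbers were 501, 362 and 154, and 193, 11, 634 and 376. Bonferroni adjustment left 16 in BBA and 7 in AAB. For AAB over BBA, the filterByExpr filter gave 17 and the fit over 15 libraries 18. The cause was not tested.

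Leaving out 1 library gave 38 to 123 calls in BBA, 13 to 51 in AAB and 10 to 19 between them, and for the interactions 82 to 153 (BBA, IL-7), 0 to 4 (AAB, IL-7), 9 to 81 (BBA, lineage) and 4 to 15 (AAB, lineage). The Stat5a difference between BBA and WT ranged from -0.82 to -0.30 and passed the test without WT replicate 3. Stat5b in AAB (-0.94) did not pass a 2-fold limit, and its BBA share was 68.1% from raw counts.

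With the replicate number as a block, 203, 116 and 45 genes were called, and 216, 11, 175 and 50 for the interactions. Of these, 106, 36 and 8 were among the calls without the block. Stat5a in BBA was then called (-0.81, adjusted p = 0.00934 by edgeR). WT replicate 3 forms a block of its own and so adds nothing to the contrasts there.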

Other observations

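The 2 libraries whose labels disagree on the cytokine held 13485027 (titled AAB) and 10713517 (titled BBA) counts. Stat5a was at 1.90 CPM in the AAB library and at 45.8 CPM in the BBA library, and Stat5b at 149 and 103 CPM. Iigp1 was at 62.8 and 109.5 CPM, Gbp2 at 172 and 170.2 CPM, Maf at 10.5 and 12.9 CPM, Igfbp4 at 612.5 and 288 CPM and Dapl1 at 35.0 and 16.7 CPM. Cish, a direct STAT5 target, was at 27.0 and 11.5 CPM. Slc15a2 was at 0.381 and 0.464 CPM, and Trim12a at 66.5 and 73.7 CPM.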
